A study of Mus musculus with 2 samples.

Results

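The receptor and signalling chain of interleukin 4 (IL-4) and interleukin 13 (IL-13) was followed through single cells of the mouse thymus. It was taken as 8 genes chosen by name: the receptor chains Il4ra, Il13ra1 and Il2rg, the Janus kinases Jak1, Jak2, Jak3 and Tyk2, and the transcription factor Stat6. The 8 genes were found among the 20451 genes of the deposited tables. The cells came from 7-week-old mice of 2 kinds, Mgl2DTR_eGFP mice given 500 ng of diphtheria toxin and examined at 48 h, and wild-type (WT) mice, labelled B6WT. Mgl2DTR_eGFP mice make the toxin's receptor under control of Mgl2, a lectin gene of a subset of dendritic cells (DCs) and macrophages, so that toxin removes cells in which that gene is active. The labels do not make clear whether WT mice were given toxin, nor how many mice were pooled. Thymus cells depleted of CD90.2-bearing thymocytes and sorted with antibodies to CD11c and CD11b were run as 1 pool, and the hashtag antibody on each cell gave its genotype, Mgl2DTR or WT. Each genotype was therefore 1 set of cells without replicates, within a library that both shared. No test between genotypes was possible, and each interval below covers counting error at 95% and not variation between mice.

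IL-4 binds the chain encoded by Il4ra. In the type I receptor, found mainly on blood cells, Il4ra pairs with the common gamma chain encoded by Il2rg; in the type II receptor it pairs with Il13ra1, and this second form answers IL-13 as well as IL-4. Jak1 sits on Il4ra, Jak3 on the gamma chain, and Jak2 or Tyk2 on Il13ra1; the active kinases phosphorylate Il4ra, and Stat6 docks there, is phosphorylated and moves to the nucleus. In macrophages and DCs this pathway is known for inducing genes such as Arg1, Mrc1, Retnla and Ccl17.

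On the mouse assembly GRCm38 (mm10), in the GENCODE M21 annotation, Il4ra lies on chromosome 7 from 125552120 to 125579474 on the plus strand. Il13ra1 is on chromosome X from 36112110 to 36171259, on the plus strand, and Il2rg on the same chromosome from 101264378 to 101268255, on the minus strand. Of the kinases, Jak1 is on chromosome 4 from 101152367 to 101265282 (minus strand), Jak2 on chromosome 19 from 29251828 to 29313080 (plus), Jak3 on chromosome 8 from 71676296 to 71690575 (plus) and Tyk2 on chromosome 9 from 21104068 to 21131243 (minus). Stat6 is on chromosome 10 from 127642986 to 127660957, on the plus strand. Il2rg lies within Gm20489, and the end of Jak3 overlaps Insl3, each on the same strand, so reads there may be shared with or lost to the neighbour and the counts of these 2 genes are uncertain to that extent. On the opposite strand, Il4ra, Jak1, Tyk2 and Stat6 each overlap another gene; whether counting used strand is unknown here. Il4ra and Jak3 are the 2 members most often higher in Mgl2DTR cells below, and bases before their starts are shown for that reason, from RefSeq (GRCm38.p6), 5′ to 3′ on the plus strand, with GC boxes (GGGCGG or its complement CCGCCC) in capitals. The RefSeq starts of both genes lie inside the GENCODE genes, 151 bases in for Il4ra and 87 for Jak3, so the stretches run from 250 bases before the RefSeq start up to the GENCODE start.
Il4ra, chr7:125552021-125552119: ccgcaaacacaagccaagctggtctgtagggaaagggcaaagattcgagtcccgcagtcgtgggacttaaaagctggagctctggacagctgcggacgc
Jak3, chr8:71676133-71676295: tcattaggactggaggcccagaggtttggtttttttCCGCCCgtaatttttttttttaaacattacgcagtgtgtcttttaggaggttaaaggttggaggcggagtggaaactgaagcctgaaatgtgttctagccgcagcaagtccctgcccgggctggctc
The 99 bases of Il4ra hold no GC box, while 10.4% of 32851 RefSeq windows have one in their first 99 bases. Each window starts 250 bases before its RefSeq start. A GC box does lie further on in the Il4ra window, between the GENCODE and RefSeq starts, in bases not shown. The 163 bases of Jak3 hold 1, and 18.4% of windows have any in their first 163 bases. The STAT pattern searched, TTC followed by GAA with any 4 bases between them, reads the same on both strands; it is in none of the members' windows from 250 bases before to 50 after the RefSeq start, and in 6.95% of all windows. With 3 bases between, the figures are none of the members' windows and 8.30%.

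There were 7433 Mgl2DTR cells with 71521759 unique molecular identifiers (UMIs, each one captured RNA molecule) and 11586 WT cells with 116719748; the median cell had 6930 UMIs in Mgl2DTR and 7820 in WT. No barcode was in both deposited gene tables. Mgl2 itself was at 17.9 CPM (UMIs scaled to a common library total) over the Mgl2DTR cells and 109 CPM over the WT cells. The cells fell into 33 clusters, numbered c0 to c32, with the 8 members and Mgl2 kept out of the genes used for clustering; 24 clusters could be named from marker genes, and a class name below means cells like that type by those rebuilt markers (T cells include thymocytes, and NK cells other innate lymphoid cells). The study's own names may differ. Cells that sat among cells bearing a pair of hashtags, and so were called doublets, made up 16.1% of Mgl2DTR cells and 17.1% of WT cells and were kept, except where stated. Levels are summed UMIs as CPM; since the kit reads the 3′ end of RNA and values are not per length, levels were compared between cell types for 1 gene and never between genes.

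Among WT cells, Il4ra was highest in activated DCs, the Ccr7-bearing DCs that carry antigen, at 45.5 CPM (interval 41.9 to 49.3), followed by T cells at 36.7 and macrophages at 30.3 CPM. Monocytes (25.1 CPM), neutrophils (24.5), B cells (18.2), plasmacytoid DCs (pDCs, 16.8), NK cells (15.1) and type 2 conventional DCs (cDC2, 13.2) made up the middle of the order, and the type 1 conventional DCs (cDC1) were lowest at 4.71 CPM (4.02 to 5.49). Between neighbours in this order the intervals separated at the top, activated DCs from T cells, and at the bottom, cDC2 from cDC1; the other 7 pairs of neighbours overlapped. Classes hid large differences among their clusters. Within the neutrophil class, c11 stood at 117 CPM and c15, the cluster richest in S100a8 and S100a9, at 15.4 CPM; within activated DCs, c5 stood at 82.3 and c8 at 20.5 CPM; and of the T cell clusters c1 stood at 56.1 CPM, with c12, whose cells were mostly called doublets, at 18.3 CPM. With each cell given the same weight, T cells and not activated DCs were the highest class for Il4ra.

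Il13ra1, the chain that turns Il4ra into a receptor for IL-13, followed another order in WT cells, led by myeloid cells. It was 57.0 CPM (46.9 to 68.6) in monocytes, 48.7 in cDC2, 34.7 in macrophages, 25.6 in activated DCs and 18.2 in cDC1. Neutrophils (14.3), T cells (13.4), pDCs (11.7), NK cells (11.3) and B cells (8.19 CPM) followed with overlapping intervals. The T cell clusters with few called doublets were far lower than their class: c1 had 2.02 and c30 1.603 CPM, and NK cluster c25 had 1.62 CPM. So the 2 ligand-binding chains were arranged differently: cDC2 were second for Il13ra1 and next to last for Il4ra, and T cells second for Il4ra and seventh for Il13ra1.

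Il2rg, shared with the receptors of IL-2, IL-7, IL-9, IL-15 and IL-21, was highest in NK cells at 252 CPM (229 to 276), then in T cells (198), macrophages (183), B cells (159), cDC2 (141), pDCs (114), activated DCs (113) and monocytes (107). Neutrophils had 39.7 CPM and cDC1 10.8 CPM (9.69 to 11.9), so the highest class stood 23.4 times over the lowest, the widest span between classes among the 8 members. Between WT clusters the span was wider for Il4ra (43.25-fold) and Il13ra1 (39.4-fold) than for Il2rg (31.2-fold). The intervals of monocytes and neutrophils did not overlap, nor did those of neutrophils and cDC1. cDC1 were thus the lowest class for both chains of the type I receptor while holding Il13ra1 at a middle level.

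**Figure D1:**
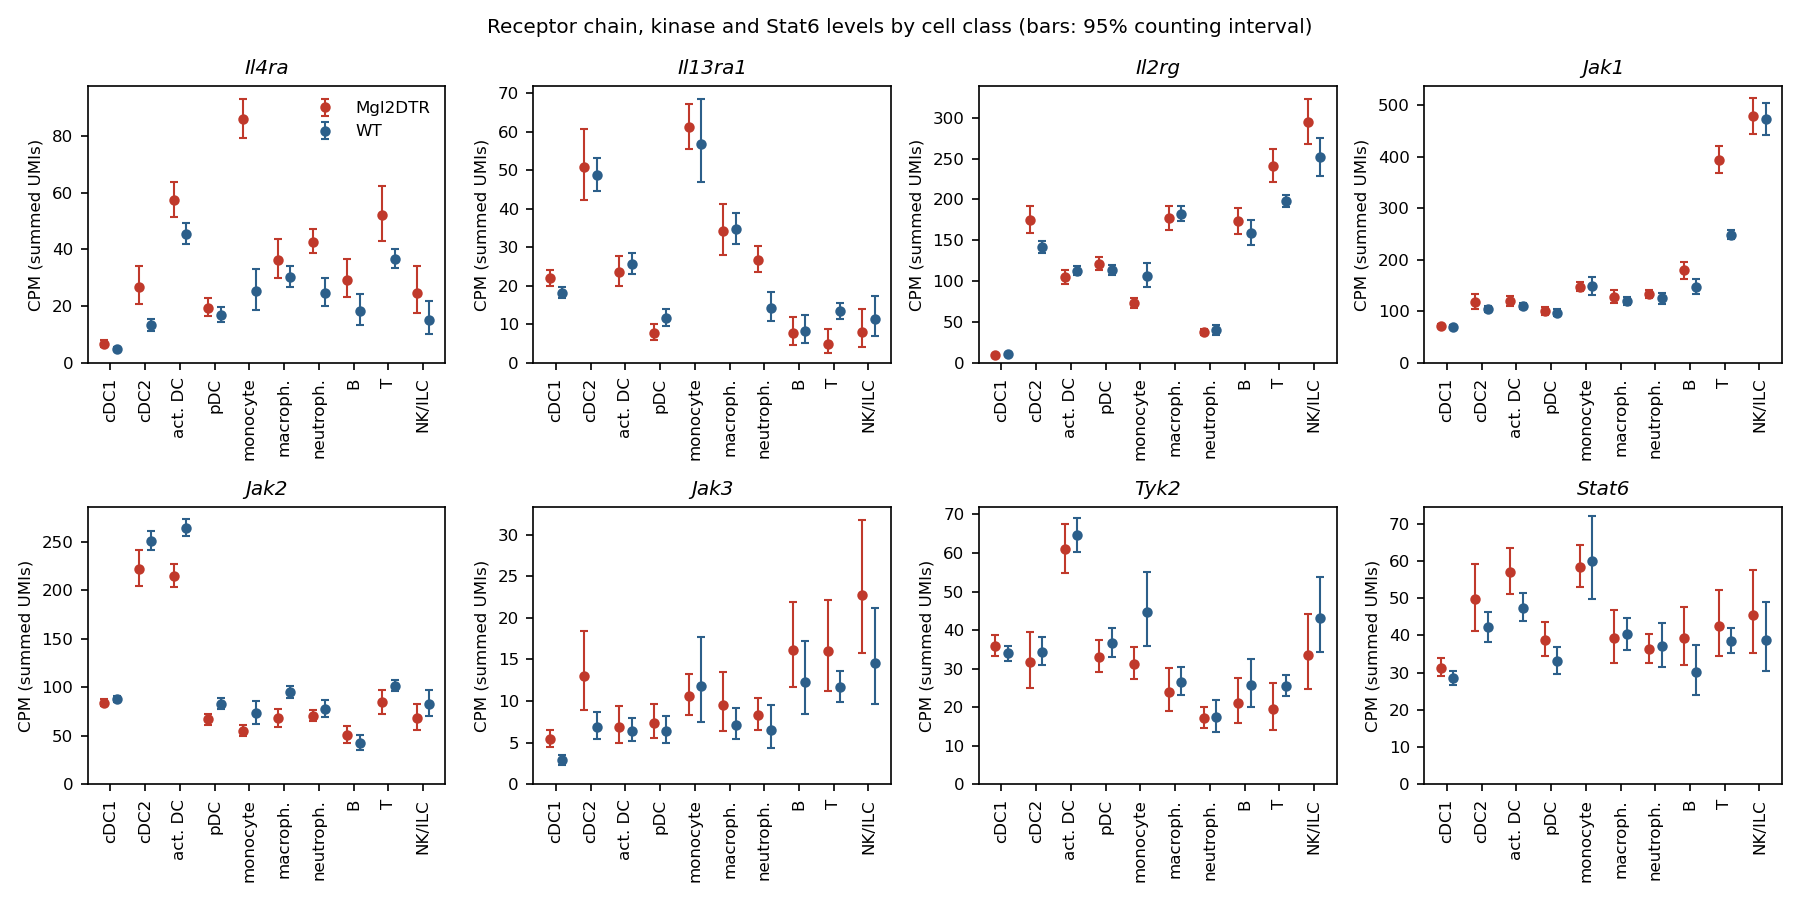
Level of each of the 8 genes in 10 named cell classes, as CPM of summed UMIs, in Mgl2DTR (red, left of each pair) and WT (blue, right); bars are 95% counting intervals. Il4ra in monocytes is 86.0 CPM in Mgl2DTR and 25.1 CPM in WT, and cDC1 are the lowest class for Il4ra and Il2rg in both genotypes.

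The kinases did not share an order. Jak1, which serves both receptor forms, was highest in WT NK cells at 473 CPM (442 to 506) and T cells at 248.6 CPM and lowest in cDC1 at 69.8 CPM; each of these 3 was separated from its neighbour. Jak3, the partner of the gamma chain, was scarce everywhere, from 14.6 CPM in NK cells, 12.3 in B cells, 11.8 in monocytes and 11.6 in T cells to 2.87 CPM (2.34 to 3.50) in cDC1. Its 4 highest classes could not be ordered by their intervals, and B cells took the top place when called doublets were left out. Jak2 was high in 2 of the 4 DC classes: activated DCs had 265 CPM (256 to 274), led by cluster c18 at 428 CPM, and cDC2 251 CPM. The other 2 DC classes, cDC1 at 88.0 CPM and pDCs at 83.2, stood below T cells (102) and macrophages (95.1), and B cells were the lowest class at 42.4 CPM. The T cell clusters differed, however. Cluster c12, mostly called doublets, had 151 CPM, while c1, c30 and c20 had 72.5, 40.1 and 35.3 CPM, below the cDC1 and pDC class values. Tyk2, a second kinase of the type II receptor and of the interferon receptors, was also highest in activated DCs, at 64.5 CPM (60.3 to 69.0), with c5 at 88.9 CPM, and lowest in neutrophils at 17.4 CPM.

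Stat6, the factor the receptors act through, varied least. It lay between 60.04 CPM (49.7 to 72.0) in WT monocytes and 28.5 CPM (26.8 to 30.4) in WT cDC1, a 2.10-fold span, and each of the 9 pairs of neighbours in the order overlapped. Monocytes led Stat6 and Il13ra1 together, and activated DCs came second for Stat6 at 47.4 CPM.

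**Figure D2:**
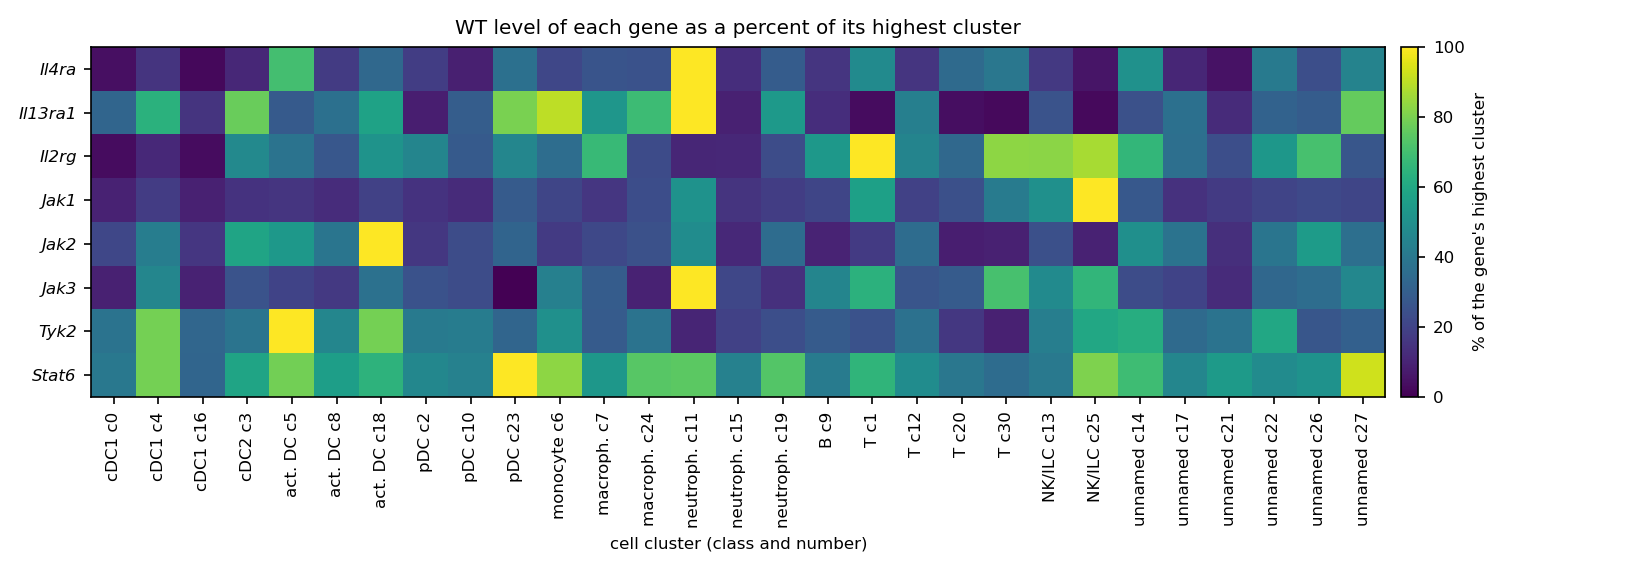
WT level of each gene (rows) in the 29 clusters with at least 50 WT cells (columns, grouped by class), coloured as a percent of that gene's highest cluster. Il4ra, Il13ra1 and Jak3 share neutrophil cluster c11 as their highest cluster, on 26, 14 and 6 WT UMIs there. For each of them the interval in c11 overlaps that of the next cluster. Jak2 peaks in activated DC cluster c18, and Stat6 is spread over many clusters.

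Across the 29 WT clusters the members' log2(CPM + 10) values went together in some pairs and not in others. Pearson's r was 0.69 for Il13ra1 with Jak2, 0.68 for Jak1 with Jak3, 0.56 for Il13ra1 with Stat6 and 0.55 for Il2rg with Jak1. It was 0.24 for Il4ra with Il13ra1, 0.32 for Il4ra with Il2rg and -0.23 for Il2rg with Il13ra1. These r values describe clusters of 1 library that differ in depth and share free RNA, and they carry no test. Among 7838 genes with at least 1000 WT UMIs, those most like Il4ra were Fas, a death receptor (r 0.79), Phf21a (0.79) and Crebrf (0.78). Those most like Il13ra1 were Gab2, an adaptor of cytokine receptors (0.89), Zfp36, which destabilises cytokine mRNAs (0.87), and Mob1a (0.86); those most like Il2rg were Clec2i (0.82), Arap2 (0.81) and Plgrkt (0.80). Jak1 was closest to Gramd1a (0.93), Vps37b (0.90) and D16Ertd472e (0.88), and Jak2 to Kif1a (0.87), Pmaip1 (0.86) and Icosl, the ligand of the T cell costimulator ICOS (0.84). Jak3 was closest to Esco1 (0.82), Wdr44 (0.81) and Mov10 (0.79), Tyk2 to Agpat1 (0.80), Kxd1 (0.79) and Arl5a (0.79), and Stat6 to Dnajb12 (0.81), Nrbp1 (0.81) and Ncoa3 (0.80).

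The share of single cells holding both chains of a receptor was low once each cell was thinned to 2000 UMIs. For the type I pair, Il4ra with Il2rg, it was 4.44% of 383 Mgl2DTR T cells and 3.59% of 1754 WT T cells, and 1.86% of 699 Mgl2DTR and 2.74% of 1315 WT activated DCs. For the type II pair, Il4ra with Il13ra1, it was 2.59% (1.49 to 4.17) of 618 Mgl2DTR and 0.29% (0.01 to 1.59) of 348 WT neutrophils, and 1.24% of 647 Mgl2DTR and 1.19% of 253 WT monocytes. The whole neutrophil class was mostly c11 in Mgl2DTR and c15 in WT. Most c11 cells were under 2000 UMIs (medians 1706 in Mgl2DTR and 1754 in WT) and left out by thinning, so c11 was a smaller part of the cells compared. The product of the single shares was 1.42% in Mgl2DTR and 0.28% in WT neutrophils. In WT T cells the product of the shares holding each chain of the type I pair was 3.22%, near the 3.59% that held both, so holding 1 chain told little of holding the other at this depth. Without thinning the type II pair was in 20.6% of Mgl2DTR and 3.70% of WT monocytes, whose median depths were 8982 and 5510 UMIs, and no difference between the genotypes' monocytes was read from it, as the thinned shares lie near a single UMI per gene.

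Over all cells of each genotype, Il4ra was at 35.3 CPM in Mgl2DTR and 22.2 CPM in WT, a ratio of 1.59 (1.51 to 1.68). By the rule used here for a difference (a ratio of at least 1.5 either way, an interval wholly on that side of 1, and at least 50 summed UMIs) it was higher, as were 6.68% of the 14097 genes measured over all cells. The ratio was 1.42 for Jak3, 1.10 for Il13ra1, 1.08 for Stat6, 1.00 for Jak1, 0.85 for Tyk2, 0.78 for Il2rg and 0.69 for Jak2. These sums mix cell types, and the 2 genotypes differed in their clusters: monocytes were 691 Mgl2DTR and 270 WT cells, neutrophils 1057 and 441, cDC2 238 and 945, and T cells 458 and 2314. When every cluster was given its WT level and the share of UMIs it had in Mgl2DTR, Il4ra came to 20.6 CPM, below the observed WT value, so that cluster shares alone gave a ratio of 0.93 against the observed 1.59. For Jak3 cluster shares alone gave 1.03 against 1.42. For Il2rg and Jak2 they gave 0.81 and 0.77, against the observed 0.78 and 0.69.

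**Figure D3:**
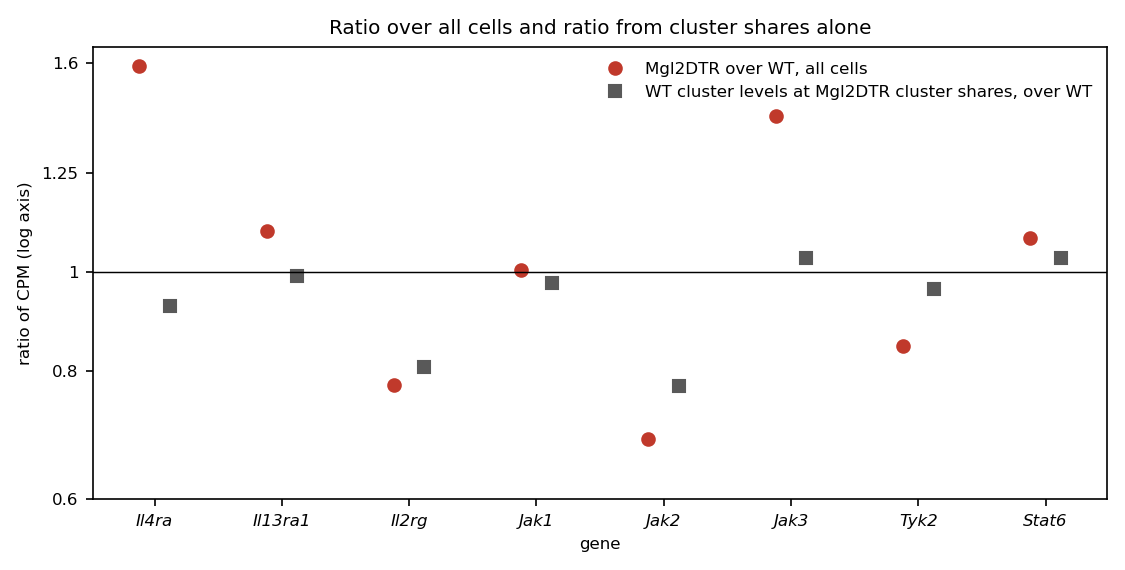
Ratio of each gene's CPM over all cells, Mgl2DTR over WT (red circles), and the ratio reached when each cluster keeps its WT level but takes its Mgl2DTR share of UMIs (grey squares), on a log axis. The 2 marks are far apart for Il4ra (1.59 and 0.93) and Jak3 (1.42 and 1.03) and close for Il2rg (0.78 and 0.81) and Stat6 (1.08 and 1.03).

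Within clusters, 24 clusters held at least 50 cells of each genotype, and 161 of the 192 pairs of a member and a cluster had at least 50 UMIs. In 13 of the 161 the member was higher in Mgl2DTR and in 4 it was lower. Over all genes in the same clusters, 4.35% of gene and cluster pairs were higher and 4.18% lower by the same rule. The members' median log2 ratio was 0.06, against 0.01 over all pairs. Il4ra held 7 of the 13 higher pairs, out of 21 measured, and its ratio was above 1 in 19 of the 21. Jak3 was higher in 4 of 11 and Il13ra1 in 2 of 17. Il2rg was lower in 1 of 22, Jak2 in 2 of 22 and Tyk2 in 1 of 21, and Jak1 and Stat6 passed the rule in none of their 24 and 23 clusters. With cells holding T cell markers left out of the other classes, 5 of 111 pairs were higher and 4 lower, and in the named clusters with few called doublets 8 of 111 were higher and 2 lower. Both choices were made after seeing the data, and the share of all genes called was not computed for either.

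**Figure D4:**
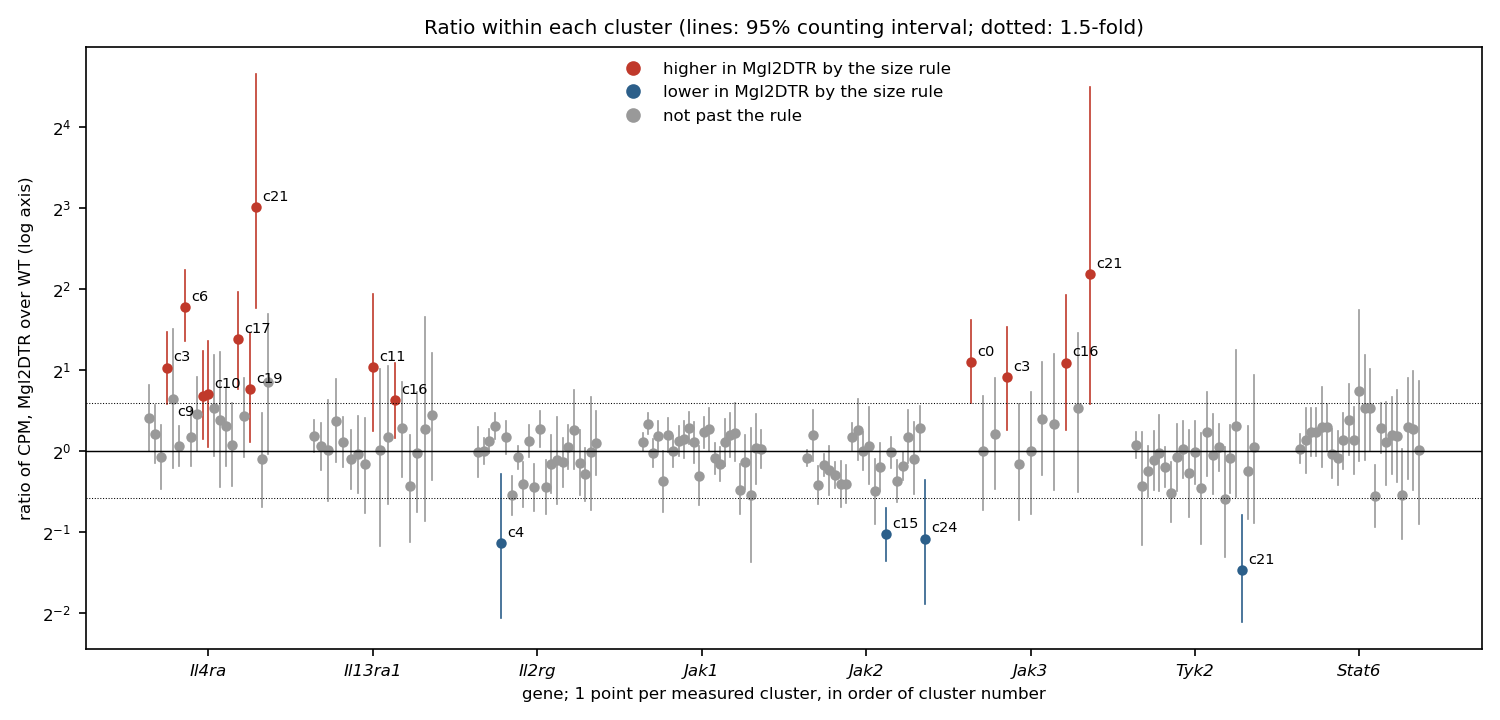
Ratio of CPM, Mgl2DTR over WT, on a log axis for each measured cluster of each gene, with 95% counting intervals; red points are higher and blue points lower in Mgl2DTR by the size rule, and labels give the cluster. Il4ra carries 7 red points, Jak3 4 and Il13ra1 2, while the points of Jak1 and Stat6 are all grey.

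The best measured difference was Il4ra in the monocyte cluster c6. It had 611 UMIs there in 691 Mgl2DTR cells and 49 UMIs in 270 WT cells, or 86.0 CPM (79.3 to 93.1) in Mgl2DTR and 25.1 CPM (18.6 to 33.2) in WT. The ratio was 3.42 (2.56 to 4.68), in a cluster where 6.46% of genes were higher, and no single cell held more than 17 of the Mgl2DTR UMIs. The gene was found in 45.9% of Mgl2DTR and 15.2% of WT cells of c6, and in 15.5% and 7.51% after thinning. Monocytes held 24.2% of all Il4ra UMIs in Mgl2DTR and 1.89% in WT, where they held 9.93% and 1.67% of the UMIs of all genes. The ratio lay between 2.45 and 4.63 in the 8 other ways of choosing or weighting the cells that gave a value. The other members of the chain did not pass the rule in c6: Il13ra1 was at 61.2 CPM in Mgl2DTR and 57.0 in WT, Stat6 at 58.4 and 60.04, Jak1 at 148 and 149, Il2rg at 72.9 and 107 (ratio 0.68, interval 0.58 to 0.81), Jak2 at 55.2 and 73.4, Jak3 at 10.6 and 11.8 and Tyk2 at 31.3 and 44.7 CPM.

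The monocytes of the 2 genotypes also differed in other ways. The 9 neutrophil markers summed to 22158 CPM in Mgl2DTR and 2225 CPM in WT cells of c6, mostly S100a8 and S100a9, which monocytes also make; the granule genes Camp (25.1 and 17.96 CPM), Ltf (9.57 and 3.59) and Ngp (149 and 29.8) were lower in both than in neutrophils, and the neutrophil receptor Cxcr2 was at 26.0 and 0.51 CPM. None of the 9 markers was at 0 in either genotype. Without the cells of c6 and other classes that held 2 or more UMIs of the neutrophil markers other than S100a8 and S100a9, 33.4% of Mgl2DTR and 14.8% of WT cells of c6, the Il4ra ratio was 3.07 (2.26 to 4.27); this filter was chosen after seeing the data. The T cell markers summed to 105 CPM in Mgl2DTR and 372 CPM in WT cells of c6, and called doublets were fewer in Mgl2DTR than in WT. With called doublets left out the Il4ra ratio was 2.99 (2.14 to 4.29). Cd74, the invariant chain of class II antigen presentation, was at 3510 CPM in Mgl2DTR and 9036 in WT. Arg1, the arginase of alternatively activated macrophages, had 2668 UMIs in Mgl2DTR cells of c6 and 1 in WT cells.

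Splitting c6 by Arg1, a choice made after its values were seen, gave a higher Il4ra level in the cells with Arg1, although these held 238 of the Il4ra UMIs and the Mgl2DTR cells without Arg1 held 373. In the 138 Mgl2DTR cells with an Arg1 UMI Il4ra was at 200 CPM (175 to 226), in the 553 Mgl2DTR cells without one at 63.1 CPM (56.9 to 69.9), and in the 269 WT cells without one at 24.7 CPM (18.2 to 32.8). The 3 intervals do not overlap. The cells with Arg1 were not deeper, with a median of 7018 UMIs against 9232 in Mgl2DTR cells without it. Jak1 was also higher in the cells with Arg1, at 203 CPM (178 to 230) against 137 CPM (128 to 147) in Mgl2DTR cells without, and Il13ra1 was lower in them, at 48.6 CPM against 63.8 CPM, with overlapping intervals.

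**Figure D5:**
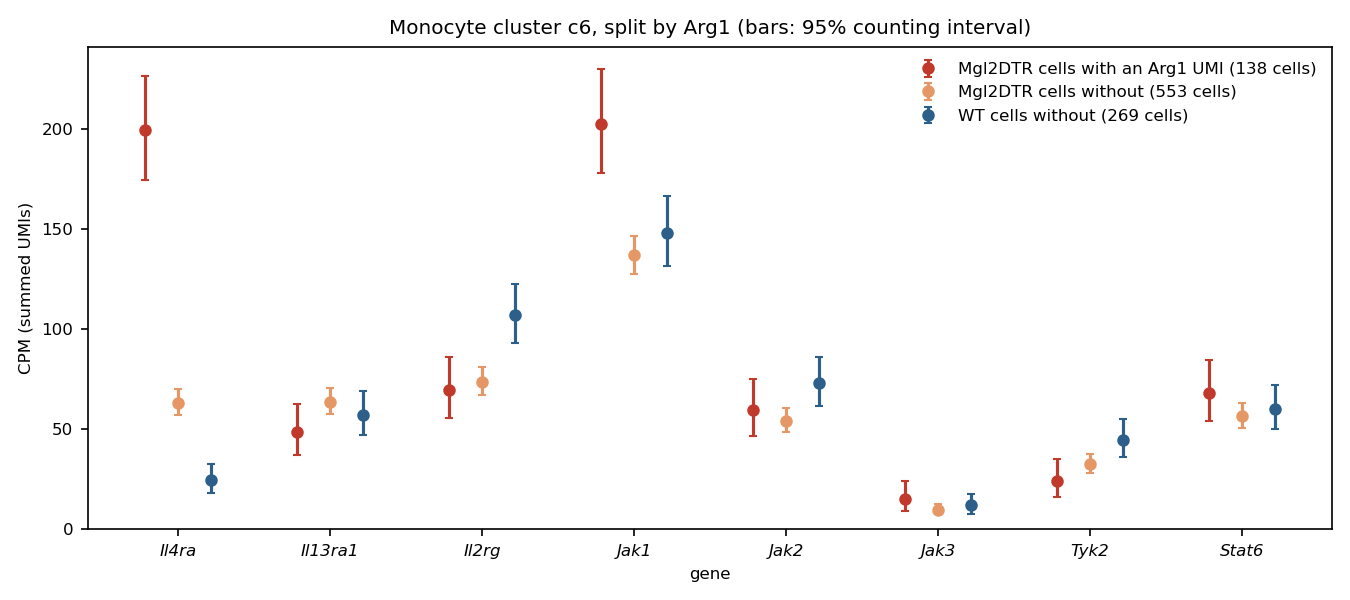
CPM of the 8 genes in monocyte cluster c6, in Mgl2DTR cells with an Arg1 UMI (red, left), Mgl2DTR cells without one (orange, middle) and WT cells without one (blue, right), with 95% counting intervals. Il4ra falls in 3 separate levels, 200, 63.1 and 24.7 CPM, while the intervals of Stat6 overlap in the 3 groups.

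In cDC2, a class known for Mgl2, Il4ra was at 26.9 CPM (20.8 to 34.2) in the 238 Mgl2DTR cells and 13.2 CPM (11.1 to 15.6) in the 945 WT cells, a ratio of 2.04 (1.495 to 2.75). Jak3 was at 13.03 CPM in Mgl2DTR and 6.93 CPM in WT, a ratio of 1.88 (1.20 to 2.89), and 3.28% of genes in this cluster, c3, were higher. With each cell thinned to 2000 UMIs the Il4ra ratio was 2.13 (0.99 to 4.35), and the Jak3 ratio was 0.83 on 4 Mgl2DTR and 19 WT UMIs, so neither passed the rule. Depth was close, with medians of 9992 UMIs in Mgl2DTR and 10103 in WT, and the 12 T cell markers summed to 103 CPM in Mgl2DTR and 89.0 in WT. Other marker lists differed more in c3: the 8 monocyte markers summed to 3528 CPM in Mgl2DTR and 2395 in WT, and the 8 B cell markers to 277 and 684 CPM. Their part in the Il4ra and Jak3 results was not tested. Mgl2 was at 201 CPM in Mgl2DTR and 666 CPM in WT cells of c3. These sums do not tell fewer Mgl2-high cells from less Mgl2 in each cell, and which of them held was not tested. Il13ra1, at 50.9 CPM in Mgl2DTR and 48.7 in WT, Il2rg, at 175 and 141, and Stat6, at 49.7 and 42.2, did not pass the rule in cDC2.

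Il4ra was higher in 5 further clusters. In B cells (c9) it was at 29.3 CPM in Mgl2DTR and 18.2 in WT, a ratio of 1.61 (1.11 to 2.35) where 6.2% of genes were higher; the B cell markers of that cluster summed to 22317 CPM in Mgl2DTR and 43632 in WT, and the B cell ratio was 1.248 (0.70 to 2.24) without called doublets. In 2 clusters made almost wholly of called doublets, pDC cluster c10 and neutrophil cluster c19, the ratios were 1.62 (1.03 to 2.55), with 2.24% of genes higher, and 1.70 (1.08 to 2.74), with 7.21% higher; with thinning these were 2.14 (0.54 to 8.87) and 2.70 (0.92 to 10.8). In c17, an unnamed cluster of cycling cells, Il4ra was at 33.1 CPM in Mgl2DTR and 12.7 in WT, a ratio of 2.60 (1.70 to 3.89) with 3.74% of genes higher; with thinning it was 1.26 (0.23 to 4.68) on 3 Mgl2DTR and 12 WT UMIs, and the T cell markers there were at 215 CPM in Mgl2DTR and 834 in WT. The largest ratio was in c21, also unnamed and cycling, where 252 UMIs in 271 Mgl2DTR cells (45.3 CPM) stood against 5 UMIs in 89 WT cells (5.62 CPM), a ratio of 8.05 (3.40 to 24.99), and 3.40 (0.83 to 29.9) with thinning. In c21 7.51% of genes were higher and 18.5% lower, and the pDC markers summed to 2008 CPM in Mgl2DTR and 11248 in WT, so c21 holds a different mix of cells in the 2 genotypes and its ratios are given as values only. Of the 8 measured clusters in which WT Il4ra was over 30 CPM, c19 passed the rule and the other 7 did not. Their ratios were 1.04 in activated DC cluster c5, 1.35 in activated DC cluster c18, 1.16 in T cell cluster c1, 1.12 in macrophage cluster c7, 1.45 (0.96 to 2.27) in neutrophil cluster c11, and 1.24 and 0.93 in the unnamed clusters c14 and c22.

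Jak3 was higher in both cDC1 clusters with few called doublets. In c0 it was at 5.26 CPM (77 UMIs) in Mgl2DTR and 2.47 CPM (59 UMIs) in WT, a ratio of 2.13 (1.501 to 3.05), where 1.38% of genes were higher. In c16, the cycling cDC1, it was at 5.55 CPM (28 UMIs) in Mgl2DTR and 2.61 CPM (25 UMIs) in WT, a ratio of 2.13 (1.20 to 3.801), where 1.62% were higher. With thinning too few Jak3 UMIs were left for the rule, and the ratios were 1.63 in c0 (7 UMIs in each genotype) and 2.75 in c16. Over the 8 alternatives the ratio was between 1.63 and 2.42 in c0 and between 2.12 and 2.75 in c16; the c16 sum fell under 50 UMIs in 3 of them. T cell markers were low in both genotypes, at 27.8 CPM in Mgl2DTR and 32.7 in WT for c0. In c21 the ratio was 4.52 (1.496 to 22.4) on 3 WT UMIs. Il13ra1 was the other member higher in c16, at 14.5 CPM in Mgl2DTR and 9.40 in WT, a ratio of 1.54 (1.11 to 2.12). This call was lost in 4 of 8 alternatives: the ratio was between 1.44 and 1.49 in 3 of them and 6.42 (1.22 to 63.3) with thinning, on 7 Mgl2DTR and 2 WT UMIs. In neutrophil cluster c11 Il13ra1 was at 130 CPM in Mgl2DTR and 63.2 in WT, a ratio of 2.05 (1.19 to 3.84) on 14 WT UMIs, where 5.99% of genes were higher.

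The lower pairs were scattered over 3 members. Jak2 was lower in neutrophil cluster c15, at 24.2 CPM in Mgl2DTR and 49.5 in WT, a ratio of 0.49 (0.39 to 0.62), where 8.67% of genes were lower and the median depths were 19172 and 7228 UMIs; with thinning the ratio was 0.59 (0.31 to 1.13). It was lower too in macrophage cluster c24, at 50.5 CPM in Mgl2DTR and 107 in WT, a ratio of 0.47 (0.27 to 0.78) on 18 Mgl2DTR UMIs, where 4.65% of genes were lower; with each cell given the same weight this ratio was 1.05, and without cells holding T cell markers 0.61 (0.33 to 1.05). Il2rg was lower in c4, shallow cDC1 of which 60.2% in Mgl2DTR and 53.0% in WT were called doublets, at 15.8 CPM in Mgl2DTR and 34.9 in WT, a ratio of 0.45 (0.24 to 0.82), where 2.79% of genes were lower; without called doublets it was 0.46 (0.15 to 1.19). Tyk2 was lower in c21, at 12.2 CPM in Mgl2DTR and 33.8 in WT, a ratio of 0.36 (0.23 to 0.58), and 1.19 with thinning on 11 Mgl2DTR and 3 WT UMIs.

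Jak1 and Stat6, which both receptor forms need, passed the rule in no cluster. The ratio of Jak1 ran from 0.69 to 1.26 over its 24 clusters with a median log2 ratio of 0.11, and that of Stat6 from 0.68 to 1.67 over 23 clusters with a median of 0.20. Stat6 lay above 1 in 19 of the 23, as Il4ra did in 19 of 21, the highest being 1.67 (0.92 to 3.32) in neutrophil cluster c11.

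The other genes of the pathway, in lists chosen with earlier results of these data known, were set beside the background of 4.35% higher and 4.18% lower over all pairs. Of 329 measured pairs of the 21 other receptors that use these kinases, 20 were higher and 21 lower; of 127 pairs of the 6 other STAT factors, 6 and 11; of 304 pairs of the 17 inhibitors, 23 and 16; and of 127 pairs of the 7 adaptors, 10 and 1. In monocytes (c6), 15 of the other receptors, 6 other STAT factors, 17 inhibitors and 6 adaptors were measured. Of these genes 1 was higher and 5 were lower, in a cluster where 6.46% of genes were higher and 8.33% lower. The higher one was Il21r (24.2 CPM in Mgl2DTR and 14.9 in WT), a receptor that pairs with the gamma chain and Jak3. The lower ones were the receptors Il7r (14.1 CPM in Mgl2DTR and 30.3 in WT) and Il10ra (55.1 and 92.9), the interferon-response factor Stat2 (35.2 and 59.0), and the STAT inhibitors Pias1 (24.2 and 46.2) and Pias3 (6.34 and 11.3).

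In cDC2 (c3), where 3.28% of genes were higher and 3.3% lower, 4 of these genes were higher and 1 was lower. The number measured from each list was the same as in c6. Il21r was at 23.6 CPM in Mgl2DTR and 11.7 in WT, Csf2rb2, a receptor chain of the IL-3 family, at 41.9 and 22.3, Stat4 at 10.6 and 5.49, and Ptpn1, a phosphatase that acts on Janus kinases, at 240 and 150 CPM. The lower one was Pias2, at 3.67 CPM in Mgl2DTR and 7.90 in WT. In cDC1 cluster c0, Il21r (2.46 CPM in Mgl2DTR and 1.254 in WT), Ptpn1 (76.4 and 45.9) and Socs3, an inhibitor of cytokine receptors (15.9 and 7.06), were higher, and Il12rb2 (3.08 and 5.39) and Pias3 (2.26 and 3.55) were lower. Over all genes of c0, 1.38% were higher and 1.45% lower. The adaptor Irs2, which binds Il4ra, was higher in activated DC cluster c5 (25.5 CPM in Mgl2DTR and 7.86 in WT), as were Ptpn11 and Pias3. Over all genes of c5, 5.72% were higher and 0.89% lower. Irs2 was also higher in macrophage cluster c7 (27.8 CPM in Mgl2DTR and 11.4 in WT), where 4.76% of genes were higher.

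Genes known to respond to IL-4 or IL-13 did not move one way: of 159 measured pairs, 36 were higher and 39 lower, against 4.35% and 4.18% over all pairs. In monocytes, with 6.46% of all genes higher and 8.33% lower, 5 of the 12 measured were higher, Arg1, Ccl24 (559 CPM in Mgl2DTR and 81.1 in WT), Mrc1 (133 and 35.4), Chil3 (534 and 308) and Tgm2 (58.6 and 23.6). In the same cells 5 were lower, Retnla (4.22 CPM in Mgl2DTR and 478 in WT), Mgl2, Clec10a, Irf4 and Ccl22, with a median log2 ratio of -0.28 and a mean of 0.38 over the 12. The Retnla values rest on few cells: 97.1% of Mgl2DTR and 95.6% of WT cells of c6 held no Retnla UMI. In cDC2, with 3.28% of all genes higher and 3.3% lower, 3 of 13 measured were higher and 3 lower: Tgm2 (18.7 CPM in Mgl2DTR and 4.33 in WT), Chil3 and Ccl24 were higher, and Mgl2, Ccl17 (109 and 211) and Pdcd1lg2 were lower. Mgl2 is the gene the toxin receptor follows. Of the ligands, none reached 50 UMIs in any compared cluster. Over all cells Il4 had 59 UMIs in Mgl2DTR and 39 in WT and Il13 had 12 and 11, and Il33, an inducer of both, had 70 and 3. These are raw counts, not scaled to the totals of 71521759 UMIs in Mgl2DTR and 116719748 in WT.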

How the data were processed

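Thymus cells of both genotypes were profiled in 1 droplet run with a 3′ kit and hashtags, per the labels. The submitters' processing notes name mm10, Seurat 4.0.4 and Cell Ranger 6.0.0. The deposited gene tables hold raw counts (UMIs per gene and cell) for 28926 cells, and the deposited annotation gives each cell's hashtag call and a margin score. Cells with a single genotype hashtag were analysed (25.7% Mgl2DTR, 40.1% WT); of the annotation, 8 columns were not used. Some cells carried a further hashtag of unknown meaning. Counts scaled to 10000 and log-transformed, 2000 variable genes (scanpy 1.11.5), 30 principal components and 20 neighbours were clustered with leidenalg 0.10.2 at resolution 1, in Python 3.11.15. A marker counted at 2 times the CPM of the other cells, with 10 CPM added, in 20% of a cluster's cells, and 3 were needed for a name. Cells with 20 of 50 neighbours bearing a pair of hashtags were called doublets. Intervals (exact Poisson, binomial and conditional binomial, scipy 1.17.1) cover counting error. Named genes were the 8 members, the listed pathway genes past the size rule in clusters described, and the 3 genes most like each member. Members and lists were chosen with earlier results of these data known. The size rule was tested on simulated data. Alternatives were doublet, marker, margin and mitochondrial filters, thinning, scalings, other clusterings and other limits.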

Additional observations from a re-analysis of the deposited data

How the results depend on the processing

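The 13 higher pairs were 10 with called doublets left out, 14 with median-ratio scaling, 19 with equal weight per cell, 9 without the cells of lowest hashtag margin, 14 at clustering resolution 0.5 and 11 with the members allowed among the variable genes. They were 3 of 49 measured without cells holding markers of another lineage, which removed 67.2% of Mgl2DTR and 67.5% of WT cells, 4 of 87 with each cell thinned to 2000 UMIs, 5 of 111 without cells holding T cell markers, 8 in named clusters with few called doublets, and 8 at a ratio of 2. The 4 lower pairs were 1 without cells of another lineage, 10 with equal weight per cell, 2 with thinning, 7 at resolution 0.5, 2 in the named clusters with few doublets, 2 at 100 summed counts and 17 at the lower ratio limit tried. The share of all genes called was not computed under these alternatives. Their counts therefore have no background and show only how the members' calls moved. In 3 pairs the direction turned: Jak3 in c3 to 0.83 and Tyk2 in c21 to 1.19 with thinning, and Jak2 in c24 to 1.05 with equal weight per cell; the cause was not tested. Il4ra in c6 passed the rule under each alternative that gave a value; it was the 1 pair of the 13 still called with thinning. The filters on T cell markers, neutrophil markers and named clusters were chosen after seeing the data. Between 6 and 8 of the 8 members kept their highest WT class. Without thinning, the type I pair was in 19.97% of Mgl2DTR and 7.78% of WT monocytes, 10.5% of WT T cells and 18.5% of WT activated DCs, and the type II pair in 20.6%, 3.70% and 4.65% of Mgl2DTR monocytes, WT monocytes and WT activated DCs. No paired analysis was possible because each genotype is 1 set of cells without replicates.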
